A study of Mus musculus with 4 samples.

Results

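Differentiation of the wild-type (WT) line into motor neurons was followed as the change of insulation score from mouse embryonic stem cells (ESC) to motor neurons (MN). The score is a deposited value per HindIII restriction fragment from 5C, a method that reads ligation products between many fragments of a chosen region with a pool of primers. Members were the fragments with a score above 0 in both WT tables, matched by start and end: 461 of the 479 fragments listed, on chromosome 6 of the mouse build mm9. They were compared as the log2 ratio of the MN score over the ESC score. The 9 fragments listed at each end of the region carried a score of 0 in both states and were left out.

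The series holds 4 libraries, 1 each of ESC and MN from the WT line and from a line whose genotype is given as delta5|6:7|9, called the deletion line here. Per the labels' protocols, all ESC were kept with Lif, 1 µM of the MEK1/2 inhibitor PD0325901 and 3 µM of the GSK3 inhibitor CHIR99021. Differentiation went through embryoid bodies, which received 1 µM all-trans-retinoic acid and 0.5 µM smoothened agonist on day 2, and the day of harvest is not given in the labels. The protocol names no sorting step and no gene expression was used here, so the share of motor neurons and their markers could not be checked. Each table stands for 3C material of 2 biological replicates per the labels, but it gives 1 combined score. No comparison therefore has a spread between libraries, none was tested, and the deletion line gives the only other libraries of the same contrast.

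An insulation score measures how many contacts pass over a fragment. By the usual convention, which the files do not state, a low score means few crossing contacts and a local minimum is read as a boundary between contact domains. CTCF, a DNA-binding protein, is found at many such boundaries. The HoxA cluster holds genes for transcription factors that pattern the body axis, and it is generally known for opening in order along the chromosome, with Hoxa13 last, as cells take on more posterior identities. In cells patterned with retinoic acid, the genes towards Hoxa13 are generally known to be kept silent by Polycomb proteins.

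The genes were ordered with a RefSeq table of GRCm38.p6, in which all 28 of the genes looked up were found. Towards lower coordinates from the cluster lie Skap2, an adaptor protein of blood cells, Snx10, a sorting nexin, Cbx3, a heterochromatin protein, Hnrnpa2b1, an RNA-binding protein, and Nfe2l3, a transcription factor. With rising coordinate the cluster runs towards Hoxa13, and Evx1, a homeobox gene, comes next. Further up follow Hibadh, a mitochondrial enzyme of valine breakdown, Tax1bp1, an autophagy receptor, the zinc finger gene Jazf1 and the transcription factor gene Creb5. Coordinates of another build cannot be carried over to mm9, so fragments outside the cluster are placed by side of HoxA and not by gene. Most of the cluster is generally known to lie in the 100 kb from 52100000 to 52200000 in mm9. This stretch held 19 fragments by midpoint and is called the HoxA bin. No mm9 gene positions were used, so the bin need not include Hoxa13.

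Most of the region kept its profile. Scores ranged from 0.401 to 2.00 in WT ESC and from 0.323 to 1.87 in WT MN, each with a mean of 1.00. The median size of the log2 ratio, regardless of sign, was 0.14, with quartiles of -0.14 and 0.12. In all, 198 fragments were higher and 263 lower in MN. A log2 ratio of 0.32 or more in size was taken as a change. By this limit 40 fragments (8.68%) were higher and 26 (5.64%) lower. With each library divided by its median, which shifts every log2 ratio by -0.028, these counts became 34 and 36. None was 2-fold higher (0%), and 4 were lower by 2-fold or more (0.868%). All 4 lay in the HoxA bin.

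The HoxA cluster showed the strongest change, a new low point inside the cluster. The fragment from 52163062 to 52173421 scored 0.831 in WT ESC and 0.323 in WT MN, a log2 ratio of -1.36 or 2.57-fold lower. It went from rank 117 from the bottom of 461 fragments to the lowest of all. Its midpoint lies 68.2% of the way through the bin, towards Hoxa13. The fragment before it, from 52151568 to 52163061, scored 0.973 in ESC and 0.368 in MN and had the largest change of the region (-1.40). The other fragments lower by 2-fold or more were 52148204 to 52151567, with 1.10 in ESC and 0.529 in MN, and 52174043 to 52179067, with 0.809 and 0.403. These 4 fragments are neighbours, so they are 1 event and not 4.

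The deletion line, whose genotype is known to name the CTCF sites Hoxa5|6 and Hoxa7|9 by the genes on either side, made a smaller step at the same place. At 52163062 to 52173421 its score was 1.24 in ESC and 0.867 in MN, a log2 ratio of -0.52. The WT ratio exceeded it in size by 0.84. Over the 395 fragments outside the cluster and its flanks, the WT ratio minus the deletion-line ratio ranged only from -0.32 to 0.36. The lines already differed in ESC at this fragment, and each of the 4 scores comes from 1 library.

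A second low point of WT MN lay at the edge of the bin that faces Skap2, where WT ESC had a shallower one 11.7 kb away. The 4 fragments from 52102714 to 52116907 had a mean score of 1.21 in WT ESC and 0.831 in WT MN (mean log2 ratio -0.55, SD 0.073 over fragments). The first of them, 52102714 to 52107157, scored 0.984 in ESC and 0.653 in MN, where it was a local minimum. Here the log2 ratios of the other line were much like those of WT, with a mean of -0.43 over the 4 fragments. Deletion-line ESC, however, had no called minimum within 20 kb of the WT ESC one, its nearest being 28.1 kb away, at 52061549 to 52068772. Between both low points the cluster kept a crest, its highest fragment being 52116908 to 52118127 in both states, with 1.48 in ESC and 1.21 in MN.

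The 4 fragments after the crest, from 52118128 to 52134172, stayed close, with log2 ratios of -0.23, -0.21, -0.16 and -0.24 and scores of 1.09 to 1.17 in MN. From there towards the new low point the ratio grew fragment by fragment, through -0.40 at 52134173 to 52140923 and -0.61 at 52140924 to 52148203. Past it the ratio shrank again, through -0.63, -0.38 and -0.16 over the 3 fragments from 52179068 to 52190053.

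The end of the bin towards Hoxa13 barely moved. The fragment from 52190054 to 52203348 scored 0.430 in WT ESC and 0.449 in WT MN, a log2 ratio of 0.063, and was the only one of the bin's 19 that was not lower in MN. In the deletion line the same fragment scored 0.619 in ESC and 0.384 in MN, a log2 ratio of -0.69. Beyond it, 52203349 to 52209630 scored 0.458 and 0.437 in WT, and 52217060 to 52233685 scored 0.447 and 0.439. The 7429 bp before the last of these are not covered by a listed fragment.

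Set out as a run of consecutive scores below 0.6, the low zone covered 7 fragments in WT ESC, from 52188539 to 52265585 (77.0 kb). In WT MN it covered 15, from 52148204 to 52288485 (140.3 kb). The zone of WT ESC was thus contained in that of WT MN, and most of the added length lay inside the cluster. The deletion line's zone began at 52188539 in MN, with 9 fragments, and at 52203349 in ESC, with 2. The limit of 0.6 was chosen with the data in view. With scores below 0.7 the WT zones were 94.2 kb and 170.9 kb. With scores below 0.5 the MN zone broke up at 52183982 to 52188538, which scored 0.517. One MN run went from 52151568 to 52183981 (32.4 kb) and another from 52188539 to 52233685. The ESC run, from 52190054 to 52233685 (43.6 kb), lay within the latter.

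Over the whole HoxA bin the mean score went from 1.06 to 0.754, and the log2 ratios averaged -0.54 (SD 0.41 over 19 fragments), and 12 of 19 fragments were lower past the limit of 0.32, against 5.64% of all fragments. This depended on the edges, since a bin starting 50 kb lower had a mean log2 ratio of -0.21. Of all 38 bins of 100 kb, this one had the lowest mean ratio, followed by the bins starting at 53000000 (-0.23) and 52900000 (-0.19).

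**Figure D1:**
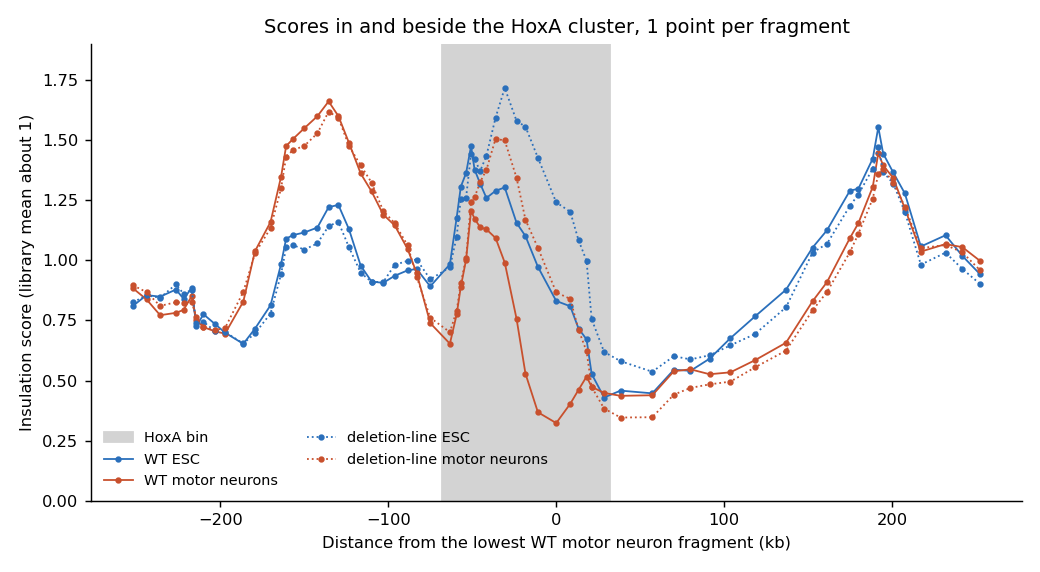
Insulation score (y axis) of the fragments in and beside the HoxA cluster only, against distance in kb from the lowest WT MN fragment (x axis), for the 4 libraries, 1 library each. The shaded HoxA bin shows WT MN dipping to 0.323 where WT ESC is at 0.831 and deletion-line MN at 0.867, and the crest on the Skap2 side is higher in MN (1.66) than in ESC (1.23) in WT.

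Outside the bin, towards Skap2, most scores were higher in MN. The flank from 51900000 to the bin held 29 fragments, of which 19 were higher and 10 lower by any amount. The lower ones included the fragment nearest to the bin, 52087189 to 52099306, with 0.892 in ESC and 0.739 in MN. Of the 29, 14 were higher past the limit (8.68% of all fragments were) and none lower past it. Those 14 are consecutive, from 51979635 to 52068772, with a mean score of 0.999 in WT ESC and 1.36 in WT MN. The crest of this flank was 1.23 in ESC, at 52036022 to 52041065, and 1.66 in MN, one fragment lower. In ESC the crest inside the cluster (1.48) stood above that of the Skap2 side, and in MN (1.21) it stood below. The deletion line changed order too, from 1.16 and 1.72 in ESC to 1.62 and 1.51 in MN, for the Skap2 side and the cluster.

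On the Evx1 side the 18 fragments up to 52400000 were mostly lower in MN, 17 of 18 by any amount, against 263 of all 461. Past the limit 4 of the 18 were lower, against 5.64% of all fragments. The mean log2 ratio was -0.16 (SD 0.14). These 4 formed a run from 52265586 to 52322521 with a mean score of 0.843 in ESC and 0.652 in MN, and the deletion line's mean ratio there was -0.36, against -0.37 in WT. Nearer to the bin the lines parted. At 52203349 to 52209630 WT had a log2 ratio of -0.070 against -0.75 with the deletion. At 52217060 to 52233685 WT had -0.026 against -0.63. Over the flank the deletion line averaged -0.27, with 7 fragments lower past the limit, against 8.24% of all fragments in that line. The crest of this side stayed at 52358808 to 52361120, with 1.55 in ESC and 1.45 in MN. As means over the flanks, WT scores were thus higher in MN towards Skap2 (mean log2 ratio 0.21) and lower towards Evx1 (-0.16). This did not hold next to the bin. There the nearest Skap2-side fragment was lower in MN (-0.27), and the nearest Evx1-side fragments barely changed in WT.

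Boundaries were called as local minima with a prominence of at least 0.25, prominence being the climb in log2 score from a minimum to the lower of the highest points reached on either side before a still lower score. There were 24 in WT ESC and 24 in WT MN. A boundary was called kept when mutually nearest minima of both states lay within 20 kb of each other by midpoint. By this rule 18 were kept, 6 of ESC were lost and 6 of MN were gained. For a lost or gained boundary, the prominence given for the other state is that of the most prominent dip within 20 kb, which need not lie on the same fragment. Of the kept ones 14 lay on the very same fragment, 11 lay below the HoxA bin and 7 above it. In the deletion line, 15 of the 18 kept boundaries had a called minimum within 20 kb in both states.

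**Figure D2:**
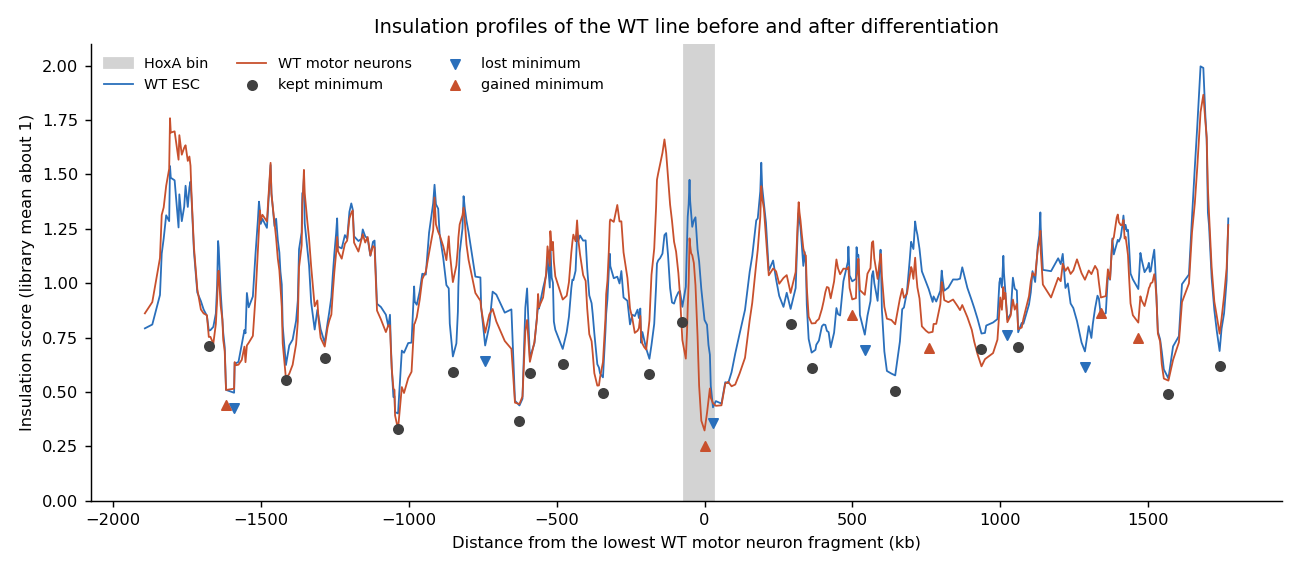
Insulation score (y axis) of WT ESC and WT MN against distance in kb from the lowest WT MN fragment (x axis), 1 library each, with symbols just below the curve at the 18 kept, 6 lost and 6 gained minima (kept and lost at the ESC score, gained at the MN score). Outside the shaded HoxA bin the curves share most of their low points.

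Of the 6 lost boundaries, the one whose score changed most lay far above HoxA, at 53449496 to 53458518. Its score was 0.687 in WT ESC and 1.02 in WT MN, and its prominence went from 0.93 to 0.088. In the deletion line it was 0.816 and 0.979, and the minimum was again present in ESC and absent in MN. The boundary at 51419287 to 51434076, below HoxA, scored 0.714 in ESC and 0.773 in MN, with a prominence of 0.43 against 0.19. It was also not called in deletion-line MN. That at 53187512 to 53196162 was shallow in ESC (prominence 0.30) and had almost the same score in MN (0.833 and 0.821). A dip of 0.17 remained within 20 kb in MN, so this loss, like that at 51419287, rests on the limit. By that limit these 3 had the same fate in both lines.

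The other 3 lost boundaries were each paired with a gained one nearby, at most 42.6 kb away. The HoxA boundary was lost at 52190054 to 52203348 and gained at 52163062 to 52173421, a distance of 28.5 kb. The score at the old position was nearly the same, 0.430 in ESC and 0.449 in MN. In WT MN a dip of prominence 0.24, just short of the limit, was left beside it, at 52203349 to 52209630. By definition its prominence counts only the climb before the still lower score at the new position. Deletion-line ESC had no called minimum within 20 kb of the old position, and deletion-line MN had one of prominence 2.22. The nearest in deletion-line ESC lay 28.7 kb away, at 52217060 to 52233685, with a score of 0.537. Below the cluster, a valley had its lowest point at 50577754 to 50578483 in ESC and at 50549226 to 50552465 in MN, 27.3 kb apart. They are consecutive listed fragments, and the 25288 bp between them are not covered by a listed fragment. Scores there were 0.497 in ESC and 0.515 in MN at the first site, and 0.510 and 0.509 at the second. The floor of this valley thus had nearly equal scores in both states, and the change of lowest point rests on small differences. Both deletion-line libraries had their called minimum at the first site. The last pair lay 42.6 kb apart above HoxA, lost at 52702039 to 52717873, where scores were 0.764 and 0.947 and a dip of 0.23 remained within 20 kb in MN, and gained at 52661516 to 52673293, where they were 1.01 and 0.926. The gained one had a prominence of 0.26, just inside the limit, against 0.21 in ESC. Both dips were thus there in both states, and this pair rests on the limit. Deletion-line MN still had a called minimum at the lost site.

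The remaining 3 gained boundaries were shallow and all lay above HoxA. At 52921148 to 52930277 the score was 0.974 in WT ESC and 0.773 in WT MN, and its prominence in MN was 0.38. In ESC the fragment was not a local minimum, and the most prominent dip within 20 kb had 0.23. In the deletion line the scores were 0.978 and 0.765, and the minimum was likewise called in MN and not within 20 kb in ESC. Deletion-line ESC had its nearest called minimum 25.7 kb away, at 52947116 to 52955718. At 53628586 to 53640169 scores were 0.974 and 0.819, with a prominence of 0.35 in MN and a dip of 0.246 within 20 kb in ESC, just under the limit. Deletion-line ESC already had this minimum. At 53502506 to 53513185 the score was higher in MN, 0.935 against 0.851, with a prominence of 0.41 in MN. A dip of 0.15 was already there within 20 kb in ESC. Deletion-line MN had a dip of 0.243 within 20 kb, just under the limit. The run ending at 53483543, which held the lost boundary 53.8 kb away, was raised more (mean log2 ratio 0.46). Of the 6 gained boundaries, 2 were gained in the deletion line too.

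**Figure D3:**
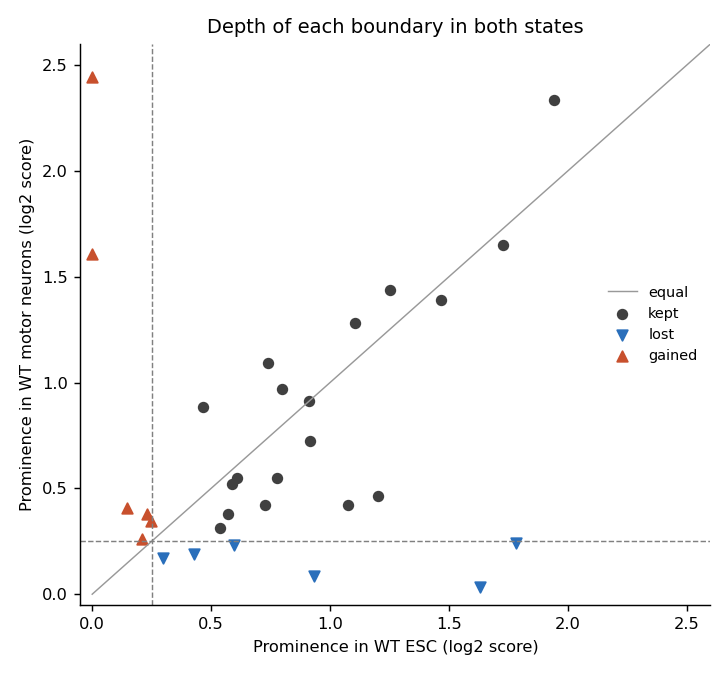
Prominence of each boundary in WT ESC (x axis) and WT MN (y axis), in log2 score, with dashed lines at the limit of 0.25 and a solid line of equality. A gained or lost boundary is drawn at the most prominent dip within 20 kb in the other state, and at 0 where there was none. The 2 gained points at the upper left are the HoxA boundary at 2.44 and the displaced point of the valley at 1.61. The floor of that valley had nearly equal scores in both states.

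Among the 18 kept boundaries, 12 had a lower and 6 a higher prominence in MN, with medians of 0.86 in ESC and 0.80 in MN. The largest weakening was above HoxA at 52802587 to 52822761, where the score was 0.576 before and 0.811 after differentiation and the prominence 1.20 and 0.46. Deletion-line ESC had no minimum within 20 kb there, and its score was 0.708. Below HoxA, 51309849 to 51325297 had the largest increase of score of all 461 fragments, from 0.663 to 1.01 (log2 ratio 0.60), and its prominence went from 1.08 to 0.42. The deletion line repeated this with scores of 0.645 and 0.960 and prominences of 1.11 and 0.50.

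The next weakened boundaries were 51685848 to 51691892, with scores of 0.698 and 0.925, 52526480 to 52533831, with 0.681 and 0.815, and 53224752 to 53231787, with 0.775 and 0.789. In the deletion line the prominence of these 3 was lower in MN as well.

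Strengthening was seen on both sides of HoxA. The boundary between the Skap2 side and the cluster went from 0.46 to 0.88 in prominence. Within 20 kb of its ESC position, deletion-line ESC had only a dip of 0.12, under the limit, and deletion-line MN had a called minimum of prominence 1.10. In WT the lowest fragment of this boundary was 52087189 to 52099306 in ESC, with 0.892, and 52102714 to 52107157 in MN, with 0.653, 11.7 kb away. The deepest boundary of WT ESC, 51123835 to 51140455 below HoxA, scored 0.401 in ESC and 0.329 in MN, and its prominence went from 1.94 to 2.34. Above HoxA, 53095876 to 53112781 scored 0.769 and 0.618, with a prominence of 0.74 in ESC and 1.09 in MN. The deletion line had nearly the same scores at this boundary, 0.777 and 0.619.

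The last of the 5 with the largest strengthening were 50745600 to 50760990, which scored 0.624 and 0.561, and the one at 51818075 to 51831643 in ESC. The latter scored 0.567 there and lay 19.1 kb lower in MN, at 51801037 to 51810569, with a score of 0.529. Where both deletion-line libraries held the boundary, its prominence differed in the same direction as in WT at 12 of 15 kept boundaries.

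The fragments past the log2 limit of 0.32 came mostly in runs, and adjacent log2 ratios were strongly correlated (Pearson's r 0.93 over neighbouring fragments, which share contacts). The 40 higher fragments formed 7 runs and the 26 lower ones 8, of which 2 were single fragments. After the HoxA cluster and its flanks, the higher runs were 51304348 to 51335370, 51656107 to 51691892 and 51850697 to 51886501 on the Skap2 side, and 52579824 to 52617932, 52771234 to 52834382 and 53425065 to 53483543 above the cluster. Their mean log2 ratios lay between 0.36 and 0.52. The lower runs elsewhere held 1 to 3 fragments each, with mean log2 ratios from -0.33 to -0.42. The lowest of them was a single fragment, 50617031 to 50625578, with a score of 0.955 in ESC and 0.714 in MN, but 0.864 and 0.787 in the deletion line. The lower run from 51140456 to 51170185, beside the deepest boundary, had a mean score of 0.699 in ESC and 0.527 in MN.

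Single fragments at least 100 kb apart gave the same picture. Of the 8 largest increases, those not yet given by value were 51984842 to 51992856 (0.716 in ESC and 1.04 in MN), 52797263 to 52802586 (0.585 and 0.831), 51656107 to 51661706 (0.824 and 1.10), 51872007 to 51874615 (1.03 and 1.36), 52588662 to 52600674 (0.706 and 0.931) and 50388483 to 50392170 (1.26 and 1.57). Of the 8 largest increases 2 were boundaries of WT ESC, and of the 8 largest decreases 1 was, against 24 of all 461 fragments. Of the 8 largest decreases, the others were 51149557 to 51155165 (0.680 and 0.496), 52290826 to 52319093 (0.878 and 0.657), 52896960 to 52908680 (1.05 and 0.802), 51790413 to 51801036 (0.770 and 0.587) and 51513436 to 51517413 (0.880 and 0.698). All 16 had the same sign in the deletion line.

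The deletion line, measured in other libraries, had the same sign at all 40 higher and all 26 lower fragments, and passed the limit in the same direction at 27 and 21 of them. In that line 33 of 461 fragments (7.16%) were higher and 38 (8.24%) lower in MN past the limit. Outside HoxA and its flanks, 322 of 395 fragments (81.5%) had the same sign in both lines, and Pearson's r of their log2 ratios was 0.85. This is a description across fragments that share primers and neighbours. The SD of the WT minus deletion-line ratio over these fragments was 0.11, against an SD of 0.19 for the WT ratio itself.

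In 2 of the higher runs the mean log2 ratio of the deletion line was lower than that of WT by over 0.2. From 53425065 to 53483543, where the boundary at 53449496 was lost, WT had a mean log2 ratio of 0.46 and the deletion line one of 0.17, and 0 of 6 fragments passed the limit there. The MN means were 1.06 and 1.02, and the ESC means 0.768 and 0.906, so the lines lay further apart in ESC. From 52771234 to 52834382 the ratios were 0.44 and 0.23, with 0.635 and 0.719 in ESC and 0.860 and 0.838 in MN. These differences between lines were not tested.

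**Figure D4:**
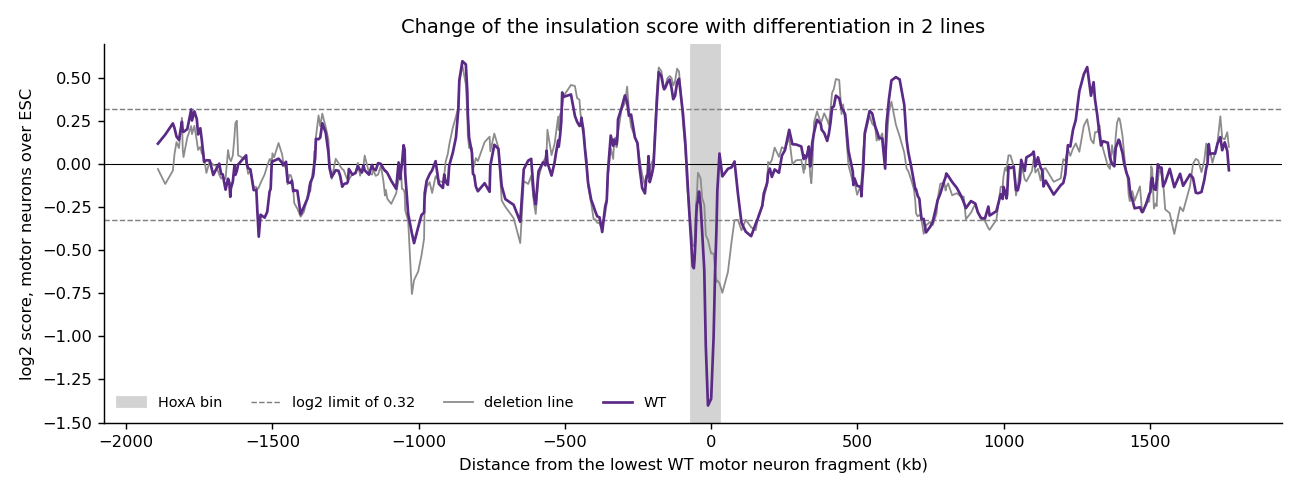
Log2 ratio of the MN over the ESC score (y axis) per fragment against distance in kb from the lowest WT MN fragment (x axis), for the WT and the deletion line, 1 library per state and line, with dashed lines at the limit of 0.32 in both directions. The lines run together over most of the region and part inside the shaded HoxA bin, where WT reaches -1.40. They also part next to the bin on the Evx1 side, with -0.070 in WT and -0.75 in the deletion line at 52203349 to 52209630. A smaller gap lies at 53425065 to 53483543, with means of 0.46 and 0.17.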

How the data were processed

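The authors deposited 1 combined insulation score per HindIII fragment and library, made with a script named combineinsulation.pl per the file headers. The submitters' processing notes name Bowtie 1 and mm9. How primers were filtered, contacts normalized, the window and direction of the score set and replicates joined is not given in the sources used. Scores above 0 averaged 1.00 in each table, so each is a level relative to its own library and region. Depth is unknown, since no contact counts were used, and no interval or floor can be given.

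Log2 ratios and local minima were computed with Python 3.11.15, numpy 2.4.6, pandas 2.3.3 and scipy 1.17.1, without a pseudocount or smoothing. The minimum caller was tested on simulated data. With 1 library per group there was no test. Items named were all gained and lost minima, the 5 kept minima with the largest rise and the 5 with the largest fall in prominence, the 8 largest changes of each direction at least 100 kb apart, and the fragments of the HoxA bin. Members, bins, limits and lists were chosen with earlier results of these data known. No mm9 sequence or annotation was used here, so no fragment sequence is shown. One gene of the list is not reported here.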

Additional observations from a re-analysis of the deposited data

Results flagged for a closer look

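Among the named fragments, 1 combined opposite directions in the lines with a difference larger than any outside the cluster and its flanks. This fragment lay at the end of the HoxA bin towards Hoxa13, from 52190054 to 52203348. Its log2 ratio of MN over ESC was 0.063 in WT but -0.69 in the other line, a difference of 0.75. The scores were 0.430 in WT ESC, 0.449 in WT MN, 0.619 in deletion-line ESC and 0.384 in deletion-line MN. Outside the cluster and its flanks the difference reached at most 0.36 in size. The next fragments, 52203349 to 52209630 and 52217060 to 52233685, differed by 0.68 and 0.60, with a negative ratio in both lines. This difference was not tested, because 1 library stands for each state of a line.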

How the results depend on the processing

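The 10 main results were recomputed under 52 alternatives. A count was taken as unchanged within 1.5 times, and a mean log2 ratio within 0.11, the SD of the WT minus deletion-line ratio outside HoxA. By this measure 46 stayed, 6 moved and 0 reversed. With a prominence of 0.4 the gained boundaries were 3 instead of 6, and with a match within 10 kb both the gained and the lost were 10 instead of 6. Each of these limits by its construction removes shallow minima or breaks pairs. Edges decided the means beside HoxA: moved 50 kb lower, the HoxA bin gave -0.21 instead of -0.54 and the Evx1-side flank -0.39 instead of -0.16, and moved 50 kb higher, the Skap2-side flank gave 0.024 instead of 0.21. No paired analysis was possible because each group has 1 library. Depth and the spread between libraries are unknown, so the size of a change that these scores could resolve is unknown too, and a deviation of 1 library cannot be told apart from a change of state.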

Other observations

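The minima of WT ESC divide the region into 25 intervals, of which 10 had a mean log2 ratio of MN over ESC above 0 and 15 below 0. The interval with the highest mean log2 ratio was the one on the Skap2 side of HoxA, from 51984842 to 52087188 (0.40, SD 0.15 over 16 fragments, 15 of them higher). It adjoins the interval with the lowest, from 52102714 to 52190053 in the cluster (-0.57, SD 0.39, all 18 lower). The deletion line gave 0.42 and -0.37 for the same intervals.

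Above HoxA, an interval that was higher in MN was likewise followed by lower ones. From 52717874 to 52802586 the mean score went from 0.896 in WT ESC to 1.04 in WT MN, with 11 of 12 fragments higher. In the next interval, from 52822762 to 53095875, it went from 1.02 to 0.909, with 28 of 31 lower, and from 53112782 to 53187511 from 0.938 to 0.828, with all 10 lower. The mean log2 ratios were 0.24, -0.16 and -0.19 in WT and 0.18, -0.21 and -0.14 in the deletion line. The highest crests of the region, such as the WT ESC maximum of 2.00, lay far from the cluster, and the correlation of the log2 ratio with log2 fragment length was 0.011.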
